A study of Mus musculus with 16 samples.

Results

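The comparison set livers of c-Met knockout (KO) mice against livers of wild type (WT) mice, all kept on a regular chow diet for 30 days. Its members were the 4 KO and 4 WT arrays whose titles name the chow diet, 8 of the 16 Illumina bead arrays of the study, and the comparison asks how the loss of c-Met shifts the liver transcriptome without a dietary challenge. The other 8 arrays, from mice given a high cholesterol diet, enter only where they are named. The labels give all 8 mice the background strain 129SV/C57BL/6 and the tissue liver. They name neither the promoter that drives any Cre recombinase, nor the deleted part of the gene, nor sex, age or animal numbers, so the replicates are separate samples whose spread may be partly technical.

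c-Met, encoded by Met, is the receptor tyrosine kinase for hepatocyte growth factor (HGF), which is made in liver mainly by stellate cells. The activated receptor recruits adaptors such as GAB1 and signals through the MAP kinase, PI3 kinase and STAT3 routes. In hepatocytes the pathway is known for its part in regeneration, survival and the defence against oxidative stress. Hepatocytes also differ by position in the lobule: those around the central vein carry out glutamine synthesis and much drug metabolism under Wnt signalling, and those around the portal tract carry out gluconeogenesis and urea synthesis.

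On each array 10811 to 11952 of 25697 probes were detected, and the upper quartile of the deposited intensity ranged from 61.4 to 107 units. Precision is limited by having 4 arrays in each group. Of the probes, 11122 were detected (detection p under 0.05) on at least 4 of the 8 arrays, and they gave 8367 genes, each read from its brightest kept probe. Apoa1, which encodes the main apolipoprotein of high density lipoprotein and marks hepatocytes, had a deposited intensity of 25036.9 to 29643.9 on the 8 arrays. Ddx3y, a Y-linked gene, was detected on all 8 and Xist on 0. Levels below are normalized log2 signals given for replicates 1 to 4 in order, and a difference is KO minus WT in log2 units with its limma standard error (n = 4 arrays per group).

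A pair of arrays carried tissue other than liver, and another stood nearer to the other genotype. WT replicate 1 held pancreatic exocrine transcripts: 28 of the 29 acinar marker genes on the array were detected there, against 2 to 5 on each of the other 7 arrays. Its summed acinar signal was 41712.9 intensity units, while the other WT arrays and the KO arrays lay between 1170.3 and 1549.8, nearly all of it from Cela1. Cela2a, an elastase, read 7461.6 in WT replicate 1 and 5.6 to 23.4 elsewhere. Pnlip, pancreatic lipase, read 2943.8 there and was below 0 on the other 7 arrays. The islet markers, hormones of the endocrine pancreas included, were detected for 0 of 10 genes in WT replicate 1. KO replicate 4 held fat transcripts. Cfd, the adipocyte serine protease adipsin, read 1926.7 there and 2.2 to 51.1 elsewhere, Adipoq, which encodes adiponectin, 217.7 against -3.0 to 15.8, and the lipid droplet gene Plin4 183.4 against 5.1 to 38.9. Over the whole list, 9 of 19 genes were highest in KO replicate 4, among them, at lower signal, the lipid droplet genes Cidec (47.7 against at most 11) and Cidea (38 against at most 13.3). Fabp4, Retn and Plin1 were detected on 0 of the 8 arrays. Of the list, 12 of 19 fat marker genes were detected in KO replicate 4 and 6 to 11 on the other arrays, and the summed signal was 20136.8 to 22258.6 in KO and 22977.1 to 33289.2 in WT, most of it from Orm1 and Car3, which hepatocytes also express. WT replicate 3 correlated as closely with the KO arrays (mean r across genes 0.985) as with the other WT arrays (0.984), where the other WT arrays had 0.969 to 0.982 with KO.

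**Figure D1:**
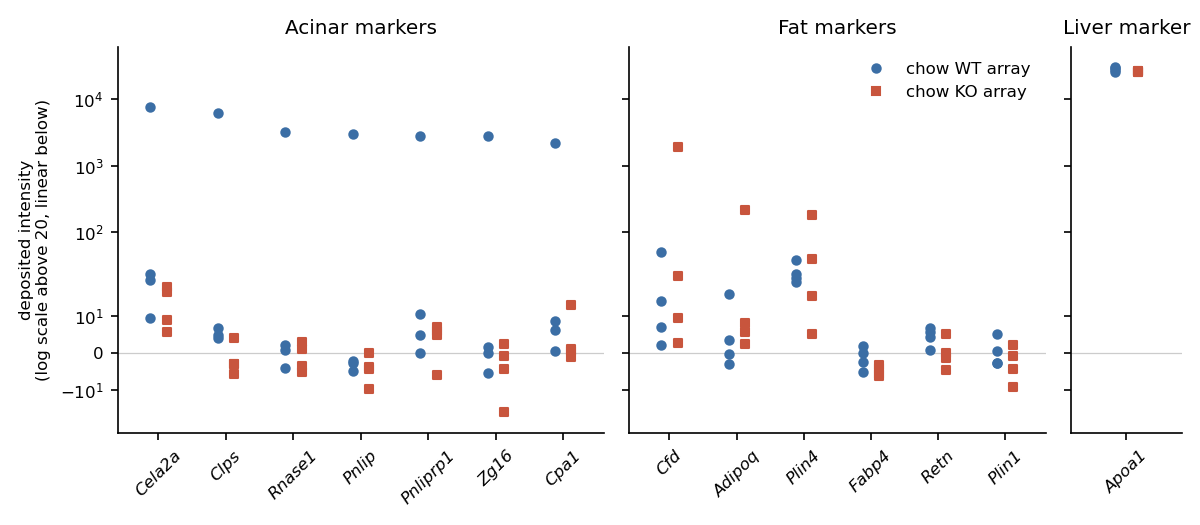
Deposited intensity (linear below 20 units, log scale above) of pancreatic acinar markers, fat markers and the liver marker Apoa1 on the 4 WT (circles) and 4 KO (squares) arrays, brightest probe of each gene. The single high acinar points are WT replicate 1, at 7461.6 for Cela2a, and the single high Cfd, Adipoq and Plin4 points are KO replicate 4, at 1926.7 for Cfd.

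The targeted gene was read first. Met signals were 4.43, 4.35, 4.83 and 5.11 in WT and 5.08, 4.74, 5.34 and 4.98 in KO. The groups overlapped, and the probe was above background in 2 WT and 3 KO arrays, at the edge of detection in both groups. The difference was 0.36 ± 0.19 (adjusted p = 0.278). Neither the labels nor the files state whether this probe falls inside the deleted segment, so the signal checks nothing about the genotype labels.

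Across the 8367 genes, 85 differed between KO and WT at an adjusted p under 0.05, which is 1.02% of them. Of these 53 were higher in KO (0.633% of genes tested) and 32 were lower (0.382%). For all 85 the 4 KO arrays lay on one side of the 4 WT arrays. Groups that do not overlap were common among all genes too, with KO higher for 8.19% and KO lower for 6.69%. The changes were moderate: 21 of the 85 exceeded a 2-fold change, and the median size was 0.82 in log2 units, from 0.55 to 3.36. Of the 19 called genes with more than 1 kept probe, 13 had every probe in the same direction. At an unadjusted p under 0.05 there were 1947 genes, 12.1% of those tested higher and 11.2% lower, where 418 would be past that level by chance alone.

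The length of the list rested on single arrays. Leaving out WT replicate 4 or KO replicate 3 left 1 call, leaving out KO replicate 4 left 2, KO replicate 1 left 9 and WT replicate 1 left 27. Leaving out KO replicate 2 gave 102, WT replicate 2 gave 138 and WT replicate 3 gave 200. Without both arrays that carried other tissue, an alternative chosen after seeing the data, Tpmt alone passed. When all 16 arrays of the study were normalized and fitted together in limma, no gene passed between KO and WT on chow (lowest adjusted p = 0.0635, with 1466 of 9174 genes at an unadjusted p under 0.05). That the 8 arrays alone call genes and the 16 do not was known from earlier work on these data when the 8 were chosen.

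**Figure D2:**
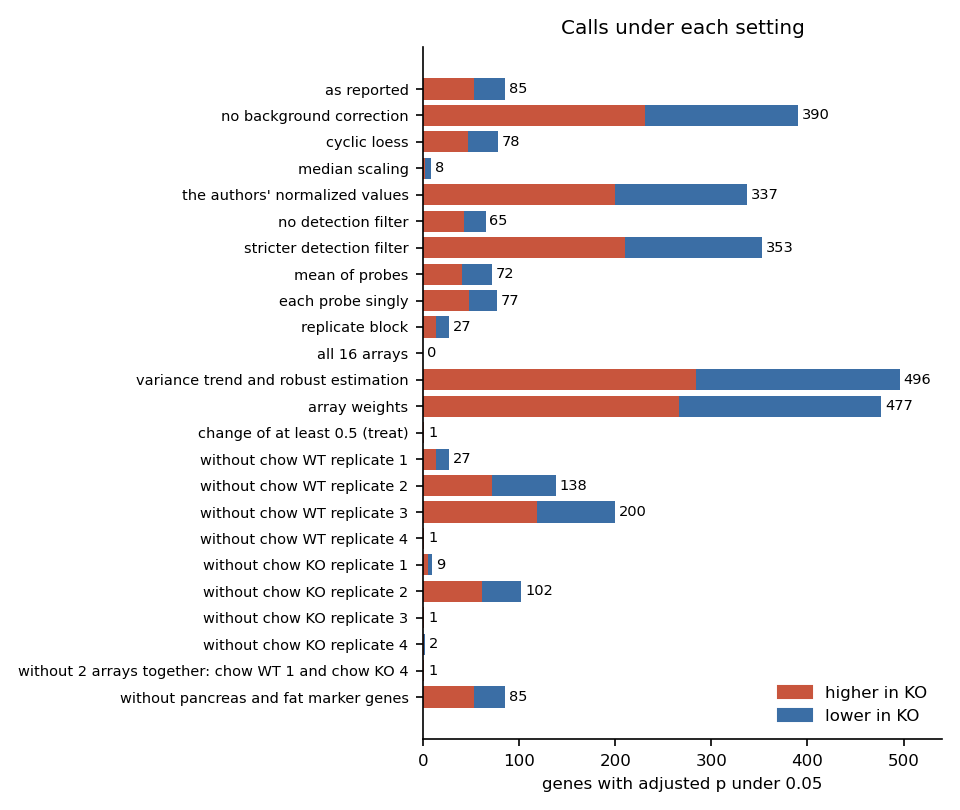
Number of genes with an adjusted p under 0.05 between KO and WT on chow, as reported and under each alternative, with bars stacked from genes higher (red) and lower (blue) in KO. The count runs from 0 with all 16 arrays to 496 with a variance trend and robust estimation, and leaving out a single array moves it between 1 and 200.

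The largest change was in Tpmt, which encodes thiopurine methyltransferase, the enzyme that inactivates thiopurine drugs. Its signals were 5.12, 5.60, 4.63 and 4.67 in WT and 8.34, 8.12, 8.34 and 8.66 in KO. Every KO array lay far above every WT array, and only 2 of 4 WT arrays detected the probe. It rose by 3.36 ± 0.21 (adjusted p = 1.99e-05). With WT at the edge of background, the size depends on the offset used in background correction and is not given as a fold. It passed whichever single array was left out, with adjusted p between 8.3e-06 and 0.000262, and was between 2.72 and 3.57 under all alternatives, but in the 16-array fit its adjusted p was 0.0737. In the 16-array normalization the high cholesterol arrays read 9.19 to 9.67 in WT, and 9.21, 8.90, 5.38 and 9.43 in KO, where replicate 3 alone was low.

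Among the other increases, Irs2, an adaptor that carries the insulin signal, read 6.71, 7.77, 7.79 and 7.65 in WT and 8.48, 8.61, 9.17 and 9.06 in KO. It rose by 1.35 ± 0.25, a 2.55-fold change (adjusted p = 0.03), and all KO arrays lay above all WT arrays. Socs3, the feedback inhibitor of JAK and STAT signalling that cytokines induce, read 5.88, 5.65, 6.03 and 6.17 in WT and 6.59, 7.04, 7.84 and 7.60 in KO, a rise of 1.33 ± 0.24 (2.52-fold, adjusted p = 0.03). Its KO arrays spread more widely than its WT arrays (SD 0.56 against 0.22). Gcgr, the glucagon receptor, read 8.17, 8.96, 9.11 and 8.68 in WT and 9.78, 9.78, 10.00 and 9.93 in KO and rose by 1.14 ± 0.19 (2.21-fold, adjusted p = 0.03). Npr2, the receptor for C-type natriuretic peptide, rose by 0.96 ± 0.14. Osgin1, a growth inhibitor induced by oxidative stress through NRF2, rose by 1.20 ± 0.21 (2.30-fold, adjusted p = 0.03), with WT at 8.31, 9.18, 9.26 and 8.67 and KO at 10.38, 9.83, 10.11 and 9.91.

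Cygb, the globin of hepatic stellate cells, rose by 1.19 ± 0.18, and Adamts2, the protease that trims procollagen, by 1.13 ± 0.19. Yet the stellate and fibroblast list had 0 of 10 measured members past an unadjusted p of 0.05 and a median of 0.06. Scara3, a scavenger receptor family member, rose by 1.12 ± 0.22, the aldo-keto reductase Akr1c19 by 1.05 ± 0.22 and Decr1, which prepares unsaturated fatty acids for mitochondrial oxidation, by 0.98 ± 0.16. The histone genes H2ac15 and H2ac7, named from the file's Hist1h2ak and Hist1h2ad, rose by 0.96 ± 0.19 and 0.92 ± 0.16. Their H2A family holds near-identical copies, so which copy bound the probes is uncertain. Armc6 (0.92 ± 0.18) and Mvb12a, which encodes a subunit of the ESCRT-I sorting complex (0.90 ± 0.15), complete the 15 largest increases. Besides Tpmt, their adjusted p ranged from 0.0239 to 0.048, and each lost its call when at least 1 array was left out.

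Among the called decreases the largest was in Cyp2b9, a cytochrome P450 that in mouse liver is higher in females. It read 6.07, 6.81, 7.44 and 6.83 in WT and 5.75, 4.45, 4.75 and 4.35 in KO, where 1 of 4 arrays detected it. It fell by 1.96 ± 0.32 (adjusted p = 0.03), a size that depends on the background correction since most KO arrays did not detect it. Its closely related family members may share the probe. Gm4956, a predicted gene, fell by 1.76 ± 0.21 and the water channel Aqp4 by 1.65 ± 0.22, with Aqp4 at 7.90, 7.38, 7.05 and 7.08 in WT and 6.20, 5.75, 5.54 and 5.34 in KO. Ccl9, a macrophage-attracting chemokine, read 10.98, 10.81, 10.20 and 10.85 in WT and 9.55, 9.34, 9.38 and 9.45 in KO. It fell by 1.28 ± 0.17 (2.43-fold, adjusted p = 0.0179), the KO arrays lying within a narrow band (SD 0.09).

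The remaining large decreases spanned several functions. Mbd1, which binds methylated DNA, fell by 1.45 ± 0.21, and all 3 kept probes of it pointed the same way. Asgr2, a subunit of the asialoglycoprotein receptor that clears desialylated glycoproteins from blood, fell by 1.26 ± 0.26. Its WT arrays ranged from 9.32 to 10.84 and its KO arrays from 8.70 to 8.89. Wfdc21 fell by 1.49 ± 0.26, the repressor E2f4 by 1.12 ± 0.19, the adhesion molecule Cadm1 by 1.09 ± 0.16 and the sodium channel subunit Scnn1a by 1.00 ± 0.17. Cyb561, an ascorbate-dependent reductase, fell by 0.99 ± 0.15, the membrane protein gene Tmco1 by 0.97 ± 0.16 and the carboxylesterase Ces1e by 0.95 ± 0.17. The 15 largest decreases also hold Fmo5 and Aldh1b1, described with their groups. Adjusted p over the 15 ran from 0.0107 to 0.0439, each lost its call when at least 1 array was left out. WT replicate 1, the array with pancreatic transcripts, was the highest WT array for 13 of the 15 decreases, all but Cyp2b9 and Mbd1, and the lowest WT array for 9 of the 15 increases. Over all genes tested it was the highest WT array for 31.7% and the lowest for 28.3%. Its part in these differences was not tested beyond the 27 calls left without it.

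**Figure D3:**
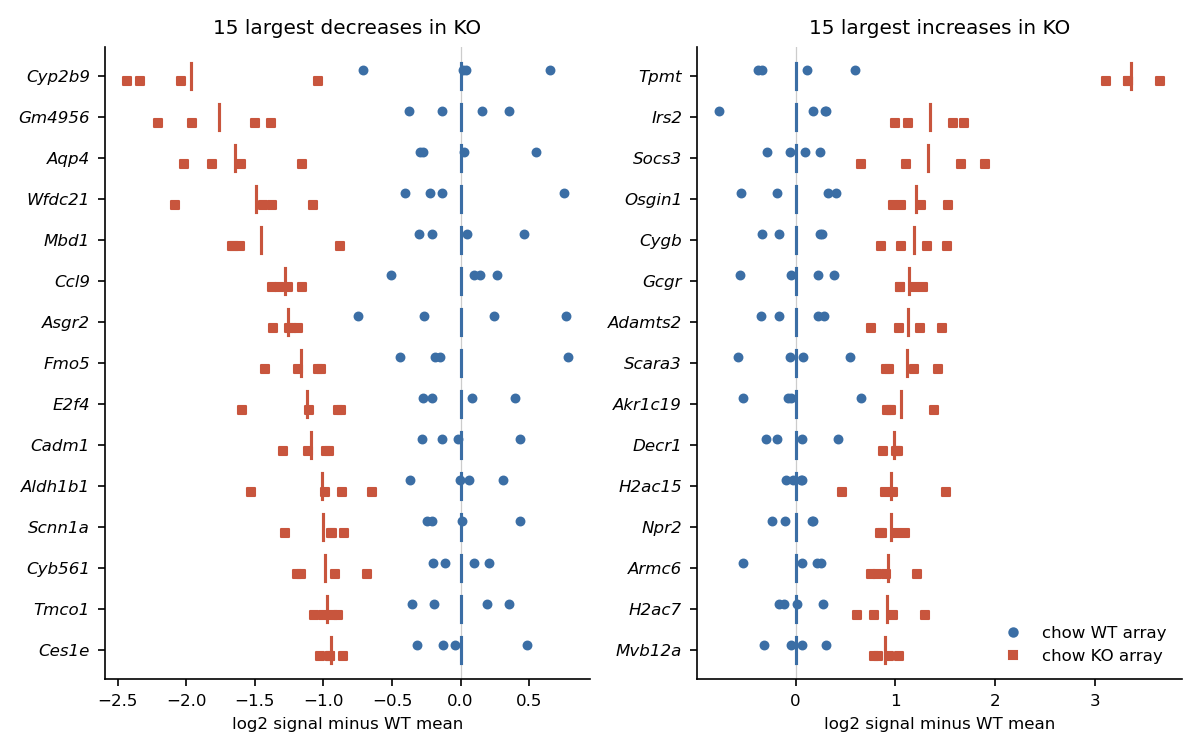
Normalized log2 signal of each array minus the WT mean for the 15 largest decreases (left) and increases (right) past the threshold. Circles are WT arrays, squares KO arrays and vertical ticks the group means (n = 4). No gene has overlapping groups, and Tpmt lies apart at 3.36.

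Outside the extremes, 38 more genes were higher (log2 differences of 0.55 to 0.89) and 17 more were lower (-0.95 to -0.60). Of the 85, 9 belonged to the 47 pathway and cell type lists, which is 1.3% of the 690 list genes measured beside 1.02% of all genes, and no list had more than 1 member called in a direction. The lists are therefore described by their medians and by the number of members past an unadjusted p of 0.05, beside the 12.1% higher and 11.2% lower of all genes and a median over all genes of -0.0007.

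Markers of the hepatocyte zones differed in opposite directions at the unadjusted level. Of 13 measured pericentral markers 11 had a positive difference, with a median of 0.40. Of the 13, 6 (46.2%) passed an unadjusted p of 0.05 higher and 0 lower, and 4 had groups that did not overlap. Over all genes 8.19% did not overlap with KO higher and 6.69% with KO lower. None passed after adjustment. Of 13 periportal markers 9 had a negative difference, with a median of -0.36, 6 (46.2%) passed unadjusted lower and 0 higher, 4 had groups that did not overlap, and Aldh1b1 passed after adjustment.

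The pericentral genes included Oat, ornithine aminotransferase, at 12.78, 13.54, 13.24 and 13.32 in WT and 13.94, 13.67, 14.07 and 14.25 in KO (difference 0.76 ± 0.18, adjusted p = 0.0566). Every KO array lay above every WT array. Cyp1a2, the caffeine-metabolising P450, differed by 0.52 ± 0.15, and Aldh3a2, a fatty aldehyde dehydrogenase, by 0.35 ± 0.13. The Wnt targets Axin2 and Lgr5 had differences of 0.55 ± 0.23 and 0.46 ± 0.22, and the ammonium transporter Rhbg of 0.42 ± 0.17 (adjusted p = 0.187, 0.229 and 0.176). Glul, glutamine synthetase and the classic pericentral gene, was near background its probe being detected in 3 WT arrays and 1 KO array, and its difference was -0.25 ± 0.16 (adjusted p = 0.366).

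On the periportal side Aldh1b1, a mitochondrial aldehyde dehydrogenase, read 8.55, 8.30, 8.24 and 7.87 in WT and 6.71, 7.59, 7.37 and 7.25 in KO, a fall of 1.01 ± 0.20 (adjusted p = 0.0369). Cyp2f2, the standard periportal P450, read 14.19, 14.06, 13.98 and 14.24 in WT and 13.95, 13.63, 13.48 and 13.49 in KO (-0.48 ± 0.14, adjusted p = 0.0796). Its groups did not overlap, though by a small margin. Gls2, liver glutaminase, had a difference of -0.44 ± 0.13, Hal, histidine ammonia-lyase, of -0.58 ± 0.17, Sds, serine dehydratase, of -0.43 ± 0.17 and the cadherin gene Cdh1 of -0.36 ± 0.13, with adjusted p from 0.0827 to 0.162. The other 7 members ran from -0.40 to 0.23. As an average over members, the pericentral score of the arrays was -0.26, -0.05, -0.29 and 0.01 in WT and 0.10, 0.17, 0.20 and 0.13 in KO, and the periportal score 0.04, 0.21, 0.13 and 0.16 in WT and -0.17, -0.12, -0.13 and -0.12 in KO. Neither score overlapped between the groups. The same held for the oxidative phosphorylation and recruited macrophage scores given below. It also held for interferon-stimulated genes (WT -0.01 to 0.25, KO -0.15 to -0.05) and glucose metabolism (WT 0.007 to 0.10, KO -0.06 to -0.006). A lack of overlap alone therefore does not set these lists apart. Without WT replicate 1 the pericentral and periportal medians were 0.36 and -0.25, and without KO replicate 4 they were 0.43 and -0.30.

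**Figure D4:**
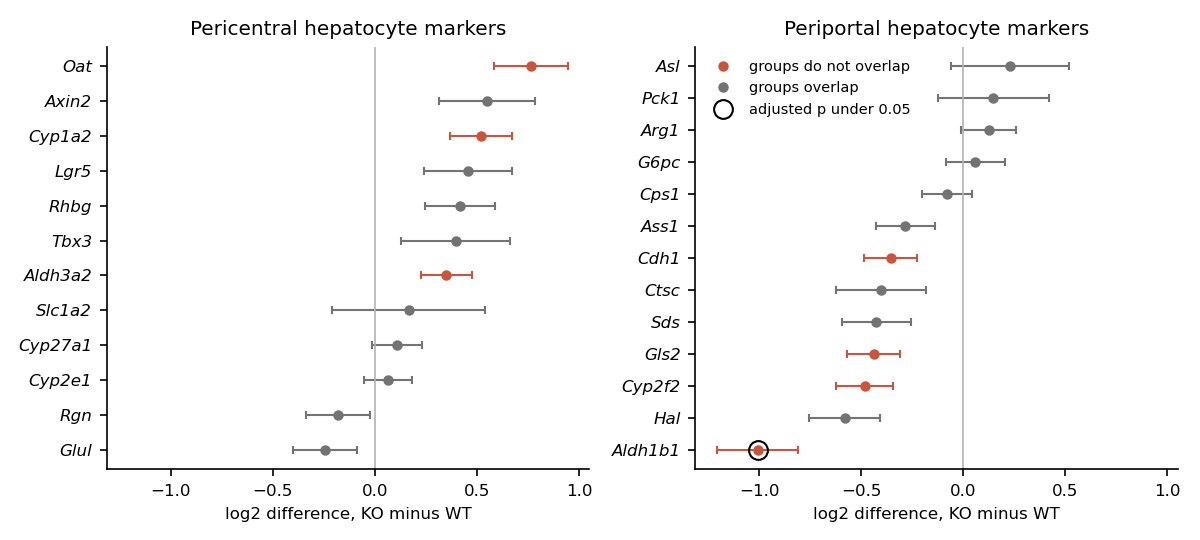
Log2 difference, KO minus WT on chow, for pericentral (left, 12 of the 13 measured are drawn) and 13 periportal (right) hepatocyte markers, with bars of 1 limma standard error. Red points mark genes whose 4 KO and 4 WT arrays did not overlap, and the ring marks Aldh1b1, the member past the adjusted threshold, at -1.01.

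Clock genes, which drive daily rhythms of liver metabolism, split within the list. CLOCK and ARNTL activate the Per and Cry genes, whose products repress them, through E-box sequences in their promoters. Of 20 measured members 6 (30%) passed an unadjusted p of 0.05 lower and 2 (10%) higher, beside 11.2% and 12.1% of all genes. The median was -0.02. Fmo5, a flavin monooxygenase with rhythmic expression in liver, was the one called: it read 12.29, 11.06, 11.32 and 11.35 in WT and 10.47, 10.08, 10.32 and 10.49 in KO and fell by 1.17 ± 0.23 (2.25-fold, adjusted p = 0.0369). WT replicate 1 was its highest array, and without it the fall was 0.91 (adjusted p = 0.035).

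Among the repressors, Per1 read 8.48, 7.89, 7.62 and 7.94 in WT and 6.27, 7.41, 7.07 and 7.01 in KO, with no overlap (-1.04 ± 0.24, adjusted p = 0.0539). Per2 had a difference of -0.66 ± 0.22 and Cry2 of -0.76 ± 0.21 (adjusted p = 0.114 and 0.0708), also without overlap. Ciart, a repressor of CLOCK and ARNTL, read 7.91, 7.89, 6.11 and 8.39 in WT and 5.93, 5.98, 6.15 and 6.09 in KO. WT replicate 3 was at the KO level, and it was slightly below it for Usp2, a rhythmic deubiquitinase, at 9.26, 9.66, 7.39 and 9.38 in WT against 7.50 to 8.08 in KO. The Ciart difference was -1.54 ± 0.38 (adjusted p = 0.0601) with all arrays and -2.03 without WT replicate 3 (adjusted p = 0.00028), and that of Usp2 was -1.10 ± 0.40 (adjusted p = 0.133) and -1.61 (adjusted p = 0.00609). Leaving out WT replicate 3 removes the array that goes against the difference. For each gene it was the 1 of 8 single-array omissions that passed. With another array left out the limma adjusted p reached 0.162 for Ciart and 0.256 for Usp2. Por, the P450 reductase, differed by 0.39 ± 0.18, with 1 of its 2 other probes in the same direction. The 12 members that did not pass an unadjusted p of 0.05, the activators Clock and Arntl and the output regulators Dbp and Nr1d1 among them, lay between -0.42 and 0.31. The labels give no hour of collection, so time of day and genotype cannot be told apart.

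**Figure D5:**
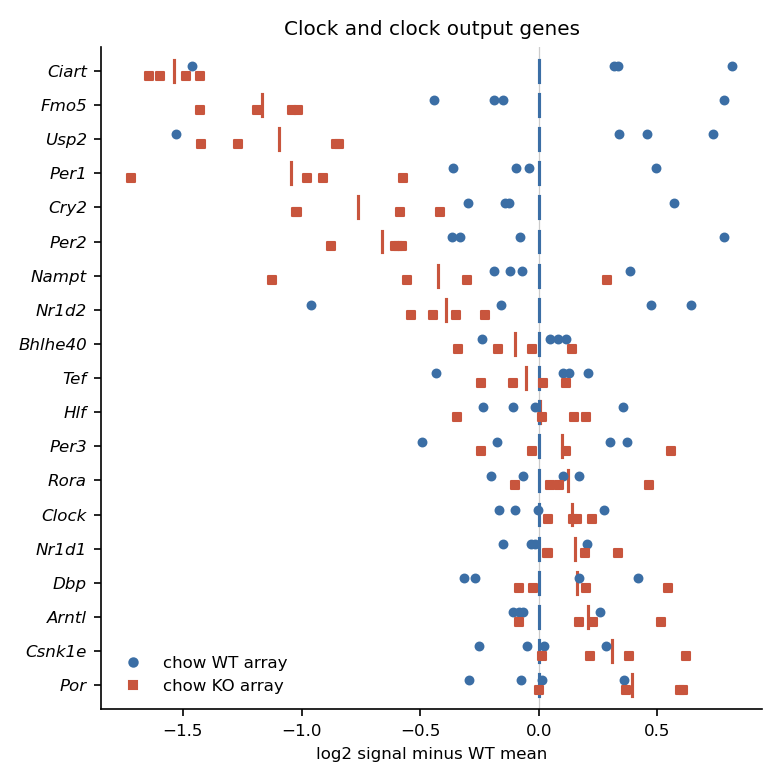
Normalized log2 signal of each array minus the WT mean for 19 of the 20 measured clock and clock output genes, ordered by difference. Circles are WT arrays, squares KO arrays and ticks group means (n = 4). Ciart and Usp2 each show 1 WT array, replicate 3, at or below the level of the KO arrays.

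Promoter windows of Per1, Ciart and Socs3 are shown because they hold matches to the elements through which the clock and the STAT pathway are known to act. Each window runs from 250 bases before to 50 bases after the RefSeq start (build GRCm38.p6), 5′ to 3′ on the gene's strand. Capitals mark the E-box CACGTG in Per1 and Ciart and the STAT motif TTCNNNGAA in Socs3, searched on both strands, and no match overlapped another of the motifs searched. Per1 has a further RefSeq window without an E-box.
Per1, chr11:69098699-69098998, plus strand: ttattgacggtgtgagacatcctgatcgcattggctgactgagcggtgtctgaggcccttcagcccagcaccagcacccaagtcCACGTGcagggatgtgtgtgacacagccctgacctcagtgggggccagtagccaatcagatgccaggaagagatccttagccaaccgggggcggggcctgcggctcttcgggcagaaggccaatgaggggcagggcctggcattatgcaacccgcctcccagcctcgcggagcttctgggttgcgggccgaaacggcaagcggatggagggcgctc
Ciart, chr3:95882179-95882478, minus strand: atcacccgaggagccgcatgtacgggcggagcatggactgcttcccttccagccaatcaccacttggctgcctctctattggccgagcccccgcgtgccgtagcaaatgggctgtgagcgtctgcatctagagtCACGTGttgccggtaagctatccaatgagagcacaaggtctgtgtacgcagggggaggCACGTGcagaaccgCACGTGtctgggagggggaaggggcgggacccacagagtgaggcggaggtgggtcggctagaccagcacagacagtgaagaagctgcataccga
Socs3, chr11:117969317-117969616, minus strand: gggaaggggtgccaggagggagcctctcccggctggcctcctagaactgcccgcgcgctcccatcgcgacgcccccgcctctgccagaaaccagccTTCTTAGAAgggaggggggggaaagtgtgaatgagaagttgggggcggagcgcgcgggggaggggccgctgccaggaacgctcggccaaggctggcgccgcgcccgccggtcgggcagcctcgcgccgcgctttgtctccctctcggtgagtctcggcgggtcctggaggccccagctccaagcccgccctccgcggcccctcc
The Ciart window holds 3 E-boxes, beginning 116, 58 and 44 bases before the start, and the Per1 window holds 1 at 166. The Socs3 window holds 1 STAT match, beginning 154 bases before the start. Such matches are frequent: 7.15% of 32851 RefSeq windows hold an E-box and 8.3% the STAT motif. Of the 65 called genes with a window, 6 hold an E-box (12.2% of tested genes with a window do) and 8 the STAT motif (8.22%). The D-box TTATGNAA, the FOXO site TGTTTAC, the antioxidant element TGACNNNGC and the ROR response element were found for 4, 1, 6 and 0 of the 65, against 3.02%, 3.25%, 16.7% and 0.232% of tested genes.

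In the HGF, MET and EGF receptor list, 0 of 17 measured members passed after adjustment, and the median was 0.03. Unadjusted, 3 (17.6%, beside 12.1% of all genes) passed higher and 0 lower. Stat3, a transcription factor downstream of c-Met and of interleukin 6, read 9.20, 9.06, 8.96 and 8.71 in WT and 9.22, 9.66, 9.75 and 9.84 in KO (0.64 ± 0.16, adjusted p = 0.0629). Its lowest KO array lay just above its highest WT array, and its 2 other probes pointed the same way. Gab1, the adaptor that binds c-Met directly, had a difference of 0.38 ± 0.12 (adjusted p = 0.0988), and Spint2, an inhibitor of the proteases that activate HGF, of 0.49 ± 0.19 (adjusted p = 0.155). The other 14 ran from -0.47 to 0.36. Of the growth hormone and STAT5 list, Socs3 was the 1 of 12 members called, and Igfbp3 (0.62 ± 0.23) and Stat5a (0.38 ± 0.16) passed unadjusted.

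Fasting and glucose lists had medians near 0. Besides Irs2, the insulin and fasting list of 22 had 1 member higher and 3 lower at the unadjusted level (median -0.07). Ppargc1a, a coactivator induced by fasting, differed by 0.55 ± 0.16 and Foxo1, a transcription factor that insulin restrains, by -0.33 ± 0.14, with adjusted p of 0.0798 and 0.188. Of 23 genes of glucose metabolism, 6 (26.1%) passed unadjusted lower and 1 (4.35%) higher, beside 11.2% and 12.1% of all genes, and 0 were called. Pdk2, which inhibits pyruvate dehydrogenase, had a difference of -0.68 ± 0.18, and Ugp2 and Khk, enzymes of glycogen and fructose metabolism, of -0.46 ± 0.15 and -0.36 ± 0.12, each without overlap and with adjusted p from 0.0645 to 0.118.

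Lipid, sterol and bile acid lists held no call. The lists of lipogenesis (15 members), fatty acid oxidation (21), cholesterol synthesis and uptake (21), bile acid synthesis (14) and bile acid transport (11) had medians of -0.12, -0.02, 0.02, 0.10 and -0.07. Cyp8b1, the sterol 12-alpha-hydroxylase that sets the make-up of bile acids, read 12.97, 12.54, 12.61 and 12.79 in WT and 13.29, 13.26, 13.27 and 13.26 in KO (0.54 ± 0.13, adjusted p = 0.0566). Its KO arrays were nearly equal and all above WT. Abcb4, the phospholipid exporter of the bile canaliculus, differed by 0.57 ± 0.14 without overlap (adjusted p = 0.0619). In sterol synthesis Nsdhl had a difference of 0.63 ± 0.17 and Dhcr7 of -0.60 ± 0.20. Of the 3 other Nsdhl probes 2 pointed the same way. Lpin1, a phosphatidate phosphatase, differed by -0.80 ± 0.26 (adjusted p = 0.108).

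Oxidative stress genes were mixed. Of 22 measured NRF2 targets 1 was called, Osgin1, and the median was 0.06. Gstm2 and Gsta4, both glutathione transferases, differed in opposite directions, by 0.58 ± 0.15 and -0.56 ± 0.16. Among 19 selenium and antioxidant genes 6 (31.6%) passed unadjusted lower and 2 (10.5%) higher, beside 11.2% and 12.1% of all genes. Selenbp2, a selenium-binding protein, read 11.32, 11.16, 10.85 and 11.14 in WT and 8.68, 8.21, 10.34 and 10.26 in KO (-1.74 ± 0.41, adjusted p = 0.0556). All KO arrays lay below WT, with replicates 1 and 2 much lower than 3 and 4. Prdx5, Txn1 and Sod3, which remove peroxide or superoxide or reduce disulfides, had differences of -0.48 ± 0.13, -0.67 ± 0.19 and -0.63 ± 0.20.

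In the unfolded protein and integrated stress list of 21, 6 members (28.6%) passed unadjusted lower and 3 (14.3%) higher. Over all genes these shares were 11.2% and 12.1%. The list had 0 called and a median of -0.23, which was -0.09 without WT replicate 1. The endoplasmic reticulum chaperone gene Hsp90b1 read 12.89, 12.16, 12.32 and 12.37 in WT and 11.71, 12.00, 11.79 and 11.73 in KO (-0.63 ± 0.16, adjusted p = 0.0645), and Herpud1, of the degradation machinery, differed by -0.60 ± 0.16. Neither overlapped. Asns, asparagine synthetase and a target of ATF4, went the other way at 6.67, 5.94, 7.11 and 6.08 in WT and 6.82, 7.81, 8.09 and 8.85 in KO (1.44 ± 0.37, adjusted p = 0.0645), with overlap. Of 14 heat shock genes 3 (21.4%) passed unadjusted lower, the mitochondrial chaperonin Hspe1 (-0.75 ± 0.25) among them. The small heat shock gene Hspb1 (0.85 ± 0.25, adjusted p = 0.0796) was the 1 (7.14%) that passed higher.

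Amino acid enzymes held several differences near the threshold. Of 35 members 6 (17.1%) passed unadjusted lower and 3 (8.57%) higher, beside 11.2% and 12.1% of all genes. Bhmt, which remethylates homocysteine, read 10.94, 9.02, 9.54 and 9.78 in WT and 8.73, 8.42, 8.14 and 8.58 in KO (-1.35 ± 0.32, adjusted p = 0.057). WT replicate 1 was the highest, and without it the difference was -0.98. Ahcy, which acts before it in the methionine cycle, differed by -0.59 ± 0.14 and Tdo2, which opens the breakdown of tryptophan, by -0.64 ± 0.15 (adjusted p = 0.0549 for both). Metallothionein Mt1, of the glucocorticoid list, had a difference of -1.23 ± 0.45, with WT at 11.02, 12.28, 9.73 and 12.06 and WT replicate 3 again inside the KO range.

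The 2 largest lists held more negative than positive differences, under every normalization tried. Of 65 subunits of oxidative phosphorylation 47 had a negative difference, with a median of -0.16, and 15 passed unadjusted lower (23.1%, against 11.2% of all genes) and 4 higher. Ndufa1 and Uqcrh, subunits of complexes I and III, differed by -0.68 ± 0.17 and -0.56 ± 0.15. The average score of these subunits was 0.16, 0.13, -0.02 and -0.01 in WT and -0.10, -0.04, -0.07 and -0.06 in KO. The groups did not overlap, but WT replicates 3 and 4 lay close to KO. Of 48 cytosolic ribosomal proteins 33 had a negative difference (median -0.16), 9 (18.8%) passed unadjusted lower and 0 higher. Their average score was 0.17, 0.12, 0.03 and -0.04 in WT and -0.20, -0.03, -0.07 and 0.02 in KO, with overlap. Rpl27a and Rps4x differed by -0.55 ± 0.15 and -0.40 ± 0.12. None of these was called, and transcripts of both families have processed pseudogene copies that the probes may not tell apart.

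Drug-metabolising P450 genes were split, with 5 of 26 (19.2%) past an unadjusted p of 0.05 lower and 3 (11.5%) higher (median 0.05). Of the 26, 4 did not overlap with KO higher and 3 with KO lower, beside 8.19% and 6.69% of all genes. Besides Cyp2b9, Cyp2f2 and Cyp1a2, these included Cyp2a12 (-0.46 ± 0.13) and Cyp2c37 (0.36 ± 0.13, chosen after its values were seen). Cyp2u1 differed by -0.66 ± 0.21 with overlap. Acute phase proteins, made by hepatocytes in inflammation, had a median of -0.05 over 23 members. Among them ceruloplasmin, Cp, and the constitutive serum amyloid Saa4 differed by -0.40 ± 0.14 and -0.45 ± 0.16 and the antiprotease Serpina3n by 0.36 ± 0.13. Hamp2, a hepcidin gene whose close copy may share the probe, read 13.68, 13.73, 11.47 and 13.79 in WT and 13.77, 9.02, 10.64 and 11.18 in KO (-2.01 ± 0.82, adjusted p = 0.167). WT replicate 3 was the low WT array and KO replicate 1 was at the level of the other WT arrays. Proteasome subunits had 4 of 25 members (16%, beside 12.1% of all genes) higher and 0 lower at the unadjusted level, while the list median was -0.08. Psmc4 (0.38 ± 0.13) and Psmc2 (0.36 ± 0.14) were without overlap, and Psmd4 (0.36 ± 0.13) and Psmd7 (0.32 ± 0.14) with overlap. The 1 other probe of Psmd7 pointed the opposite way.

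Sex-biased, immune and growth genes gave single values. Cyp4a12b, a male-predominant P450 with a near-identical neighbour in its family, rose by 0.57 ± 0.12 (adjusted p = 0.0468). In the female-high list Cyp2b9 fell, the sulfotransferase gene Sult1a1 differed by -0.45 ± 0.12 and Fmo1 by 0.37 ± 0.13 without overlap. Of 20 male-high members 4 (20%) passed unadjusted higher and 4 (20%) lower. Of 10 female-high members 1 (10%) passed higher and 2 (20%) lower. The medians of the male-high and female-high lists were 0.02 and 0.10. Of 26 interferon-stimulated genes 22 had a negative difference (median -0.24). Unadjusted, 3 (11.5%, beside 11.2% of all genes) passed lower and 1 higher, and Ifit3, an antiviral effector gene, differed by -0.68 ± 0.23. That median was -0.16 without WT replicate 1 and KO replicate 4. In antigen presentation Tap2 differed by 0.63 ± 0.14 (adjusted p = 0.0529) and B2m by -0.33 ± 0.11. Bid, a pro-apoptotic BCL2 family gene, read 7.62, 7.56, 7.68 and 7.75 in WT and 7.12, 7.01, 6.94 and 7.01 in KO and fell by 0.63 ± 0.11 (adjusted p = 0.03). Mdm2, the inhibitor of p53, differed by 0.51 ± 0.13. Ccnd1, cyclin D1, read 8.23, 8.75, 8.68 and 8.98 in WT and 9.39, 9.10, 9.73 and 9.42 in KO, without overlap (0.75 ± 0.18, adjusted p = 0.0593, its 2 other probes in the same direction), and Mcm5, a replication helicase subunit, differed by 0.52 ± 0.19. The median of the 15 cell cycle genes was 0.05.

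Of 13 measured hepatocyte markers 0 were called, and the median was 0.02. Unadjusted, 2 (15.4%, beside 11.2% of all genes) passed lower, Alb (-0.68 ± 0.19) and Rbp4 (-0.49 ± 0.17), and 0 higher. No member of the lists for other liver cells was called. The medians were 0.06 for 12 Kupffer cell, 0.09 for 7 recruited macrophage, -0.11 for 14 sinusoidal endothelial and 0.03 for 6 cholangiocyte markers. All 7 recruited macrophage members measured, of 16 on the array, had a positive difference. Of them 3 (42.9%, beside 12.1% of all genes) passed unadjusted higher, as did 2 of the 6 cholangiocyte markers (33.3%). Spp1 counts in both lists. The average score of the recruited macrophage list was -0.0016, -0.15, -0.01 and -0.31 in WT and 0.12, 0.13, 0.09 and 0.13 in KO, without overlap. The list's median moved with single arrays, to 0.21 without WT replicate 1, 0.25 without KO replicate 2 and 0.32 without KO replicate 4. In the recruited macrophage list Lgals3 and Cd9, a galectin and a tetraspanin of macrophages, differed by 0.46 ± 0.16 and 0.35 ± 0.13. Spp1, osteopontin, differed by 0.62 ± 0.24, with WT replicate 3 (7.36) inside the KO range of 6.82 to 7.58 and the other WT arrays at 6.33 to 6.50. Without that array the difference was 0.87 (adjusted p = 0.0498). It was the 1 of 8 single-array omissions under which Spp1 passed, and the limma adjusted p reached 0.289 with another left out. Among 6 red blood cell genes, Alas2, the erythroid enzyme of heme synthesis, differed by -0.73 ± 0.17 without overlap (adjusted p = 0.0539). In whole liver, fewer cells of a type and less RNA per cell cannot be told apart. The part of the pancreatic and fat tissue in the differences given here was not tested beyond the values without those arrays.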

How the data were processed

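Liver RNA was read on Illumina bead arrays, and the deposited table holds per probe an intensity, which from its values is background-subtracted and not normalized, with a detection p-value deposited beside it. GenomeStudio 2009.1 is named, without its role, per the submitters' processing notes. A second deposited table, judged from its values to be quantile-normalized linear intensity, served as an alternative. With R 4.3.3 and limma 3.58.1, the 8 chow arrays were background-corrected by normexp from detection p (offset 16), quantile-normalized and put on the log2 scale. Probes detected on at least 4 arrays were kept. lmFit and eBayes gave two-sided tests with Benjamini-Hochberg adjustment over 8367 genes at 0.05. The procedure was tested on simulated data. Symbols were updated through RefSeq: 14307 were current, 2906 were synonyms and 925 were not matched. Sequences are from RefSeq (GRCm38.p6). The comparison, the 47 gene lists and the rule for named genes were chosen with earlier results of these data known. Named were Met, the 15 largest changes in each direction, list members called, up to 4 more per list by p, and clock, HGF and cell type members; genes outside this are marked. Alternatives covered background, normalization, filter, probe choice, replicate block, all 16 arrays, variance model, a minimum change and each array left out. Figures used Python 3.11.15 and matplotlib 3.10.9. A few list members count in the totals but are not reported by name here.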

Additional observations from a re-analysis of the deposited data

Results flagged for a closer look

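In 14 of 246 sets of 4 arrays examined, 1 array lay far from the other 3 of its group by Dixon's test at the 95% level, where chance gives about 12.3. Some of these follow the tissue signals of single arrays. The summed acinar marker intensity was 41710 in WT replicate 1 against 1272 to 1550 in the other WT arrays, and its Cela1 signal was 11.81 against 10.51 to 10.59. In KO replicate 4 the Cfd signal was 11.14 against 4.466 to 5.239. WT replicate 3 stood apart for Hamp2 at 11.47 (others 13.68 to 13.79) and for Spp1 at 7.361 (6.33 to 6.504).

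WT replicate 1 was also low for Irs2 at 6.712 (7.654 to 7.792) and Cyp1a2 at 12.51 (12.86 to 12.9), and WT replicate 2 was high for Tap2 at 8.306 (7.922 to 7.983). KO replicate 1 was high for Akr1c19 at 11.01 (10.54 to 10.58) and low for Decr1 at 8.852 (8.988 to 9.004). KO replicate 2 was high for Mbd1 at 9.711 (8.919 to 8.975) and low for Per2 at 8.213 (8.485 to 8.515) and Mcm5 at 6.038 (6.567 to 6.621). KO replicate 3 was high for Mrpl2 at 10.62 (10.44 to 10.45). What set these arrays apart was not tested.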

How the results depend on the processing

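The count of 85 genes moved with most choices. It was 390 with no background correction, 337 on the authors' normalized values, 353 under the stricter detection filter, 496 with a variance trend and robust estimation and 477 with array weights. It was 8 under median scaling (2 higher, 6 lower), which moved the median of all genes to -0.14, 1 for a change of at least 0.5 (treat) and 0 with all 16 arrays (limma, 1466 at an unadjusted p under 0.05, lowest adjusted p 0.0635). Leaving out single arrays gave 1 to 200, and leaving out WT replicate 1 with KO replicate 4 gave 1. Of the 85, 84 were among the 353 and all 85 among the 390, 337, 496 and 477. Cyclic loess, no detection filter, the mean of probes and each probe singly gave 65 to 78. The labels do not say whether replicate numbers pair the arrays. The correlation of same-numbered arrays was -0.12 to 0.12, and 1 of 4 correlated best with its own number. Such values show no clear pairing but cannot exclude a shared handling. The fit with the replicate block called 27 genes, 23 of them among the 85.

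The periportal median of -0.36 was -0.28 with no background correction, -0.47 under median scaling, -0.29 on the authors' values, -0.30 with each probe singly and with all 16 arrays, -0.26 without both tissue-bearing arrays and -0.37 to -0.25 with single arrays left out. The pericentral median of 0.40 was 0.21 under median scaling. Relative to the shift of all genes under that scaling, both lists stood on the same sides. The clock median ran from -0.18 (without WT replicate 3) to -0.011 with single arrays left out. Of 40 lists with at least 6 members measured, 24 had a median that changed sign under some alternative, the largest of them 0.31 for fat markers. The 118 named genes kept their sign in all 2699 values computed: 390 of these values lost and 140 gained a call. Most of these genes were named for their size or p on the same arrays, so a kept sign says little about their direction. Of 41 called among them, Tpmt alone stayed past the threshold with each single array left out. The cause of these changes was not tested. Met had no value under the stricter filter. Precision is limited by the array number and, for genes such as Met, Glul and Cyp2b9, by signals near background.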

Other observations

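Genes outside the lists and the 15 largest changes were looked at after their values were seen. They were picked singly, and no count over their pathways was made. Edem2, which marks misfolded glycoproteins for degradation, read 10.88, 10.95, 11.12 and 10.92 in WT and 11.74, 11.73, 12.10 and 11.87 in KO and rose by 0.89 ± 0.13 (limma adjusted p = 0.0239), with 2 of its 3 other probes in the same direction. The coatomer subunit Copa rose by 0.66 ± 0.12, the Golgi glycoprotein Glg1 by 0.82 ± 0.14 and Txndc5, a disulfide isomerase of the endoplasmic reticulum, by 0.65 ± 0.13. Their groups did not overlap, as for every gene called.

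Mrpl2, a mitochondrial ribosomal protein gene, read 9.48, 9.69, 9.83 and 9.71 in WT and 10.45, 10.45, 10.62 and 10.44 in KO and rose by 0.81 ± 0.12, and Mrpl17 rose by 0.85 ± 0.15. Mrps35, of the small subunit, fell by 0.60 ± 0.12. Of genes expressed outside hepatocytes, Mrc1, the mannose receptor of Kupffer and sinusoidal endothelial cells, fell by 0.74 ± 0.13 and the matrix proteoglycan Bgn rose by 0.55 ± 0.11. Each of these 9 genes lost its call when at least 1 array was left out, with limma adjusted p up to 0.146.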
